A study of Homo sapiens with 6 samples.

Results

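The regulatory desert around *SOX9* on the long arm of human chromosome 17 was described in Hi-C maps of 4 cancer cell lines. The genes followed were *SOX9*, *KCNJ2*, *KCNJ16* and *MAP2K6*, which are 4 of the 20098 protein-coding genes of the annotation and lie among 58 such genes between 65 and 73 Mb of the hg19 build. They were chosen for their place on either side of a domain boundary and for a contact already seen in one of the lines, so the position of that boundary, the contacts of *SOX9*, the coverage and the contact itself are given as descriptions, with no test. A Hi-C map counts how often 2 stretches of the genome were ligated to each other, here between bins of 40 kb. The 4 genes overlapped 10 of the 200 bins of the region, out of 77404 bins in the genome, and all 200 passed the coverage filter.

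*SOX9* encodes a transcription factor of the HMG-box family that is needed for cartilage and testis and is active in stem and progenitor cells of the intestinal crypt. It sits in a very large gene desert whose enhancers act on it from far away. *KCNJ2* and *KCNJ16* encode subunits of inwardly rectifying potassium channels, and *MAP2K6* encodes a kinase that activates p38 mitogen-activated protein kinases. Topologically associating domains (TADs) are stretches whose bins contact each other more than they contact their neighbours, and the boundary between the *KCNJ2* and *SOX9* domains is known from limb malformations in which duplications that span it give the enhancers of one domain access to the gene of the other.

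SW480 and SNU-C1 are colon cancer lines, HCC1954 is a breast cancer line and OE33 is a line of oesophageal adenocarcinoma, and no treatment or genetic change was named for any of them. SW480 had 2 replicate maps and a map without a replicate number, which equalled the sum of both replicates at 98.8% of the bin pairs of chromosome 17 and is used as the SW480 map, while the other lines had 1 map each. Maps hold no expression, so the lines could not be checked against marker genes. SW480 held 135682850 read pairs within chromosomes, SNU-C1 115014329, HCC1954 93501178 and OE33 89418425, of which 3239888, 2106383, 2883564 and 3468511 lay on chromosome 17. Contacts are given as the observed over the expected contact frequency at the same distance (O/E), where 1 is the mean of all chromosomes of that map. Each interval is an exact 95% Poisson interval on the number of read pairs. Intervals cover counting error only, and the difference between the SW480 replicates is the only replicate spread in these data. OE33 had the largest share of read pairs between chromosomes, and 40.7% of the read pairs of the region joined it to other chromosomes, against 19.4% in SNU-C1 and 23.9% in HCC1954. The part of that difference in the results for OE33 was not tested.

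*MAP2K6* lies on the plus strand from 67410838 to 67550006, *KCNJ16* from 68049570 to 68131749, *KCNJ2* from 68164814 to 68176185 and *SOX9* from 70117161 to 70122557, also on the plus strand. Almost 2 Mb without another protein-coding gene separate *KCNJ2* from *SOX9*. The insulation score, the mean contact across a bin within a square of 1 Mb, marked 1 boundary in this interval in SW480, SNU-C1 and OE33 and 2 in HCC1954. The lowest insulation lay in the bin from 68.60 to 68.64 Mb in SW480, in both of its replicates and in OE33, and in the next bin, from 68.64 to 68.68 Mb, in SNU-C1 and HCC1954. All maps thus placed the minimum within 40 kb, which is 1 bin. For comparison, 54.4% of the 2345 boundaries of the autosomes were found within 1 bin in all 4 lines. The nearest protein-coding gene to this bin was *KCNJ2*, 424 kb away.

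Insulation at the minimum, on the log2 scale, was −0.31 in SW480, −0.33 and −0.30 in its replicates, −0.38 in HCC1954, −0.22 in OE33 and −0.21 in SNU-C1. At the *KCNJ2* bin it was 0.57, 0.80, 0.59 and 0.95 in the order SW480, SNU-C1, HCC1954 and OE33. The boundary strength, the swing of the 200-kb slope of the score across it, was 1.13, 1.22, 1.09 and 1.19 in that order, with 1.17 and 1.10 in the replicates. Boundaries at least as strong made up 11.3% of the autosomal boundaries of SW480, 11.2% of those of SNU-C1, 16.5% for HCC1954 and 14.5% for OE33. With this square only HCC1954 had a further boundary call in the desert, at 69.04 Mb with a strength of 0.59, beside the non-coding gene *CASC17*. The call depended on the setting. From read pairs without correction HCC1954 lacked it, with a square of 480 kb SNU-C1 also had a call at 69.08 Mb, and with a square of 240 kb every map had calls at 69.08 and 69.44 Mb. With that smallest square 69.08 Mb held the lowest insulation of HCC1954 between the genes, while that of the other 3 lines was at 68.60 Mb.

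**Figure D1:**
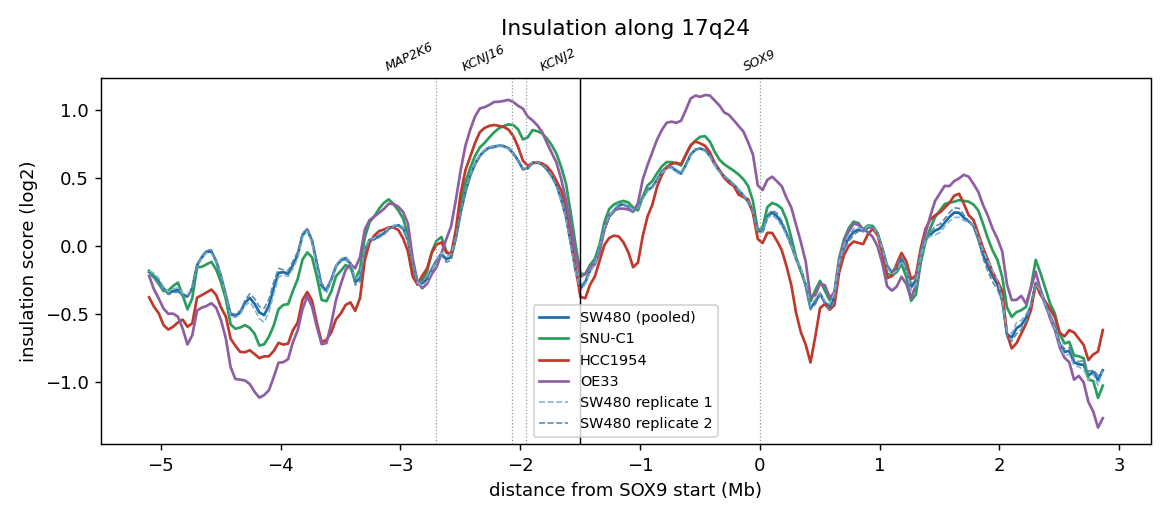
Insulation score (log2, 1-Mb square) by distance from the start of *SOX9* in Mb for the 4 lines (solid) and the SW480 replicates (dashed); dotted lines mark the starts of the 4 genes and the black line the boundary. All maps dip at the black line, and at the distal end of the *SOX9* domain HCC1954 dips further than the other lines, to −0.86.

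On the mean of the 4 lines the boundary divided a *KCNJ2* domain of 1.36 Mb, from 67.24 to 68.60 Mb, from a *SOX9* domain of 1.92 Mb, from 68.60 to 70.52 Mb. The *KCNJ2* domain held 4 protein-coding genes, namely *ABCA5*, a lipid transporter of the ABC family, with *MAP2K6*, *KCNJ16* and *KCNJ2*. *SOX9* was the only protein-coding gene of its domain, which also held the non-coding genes *CASC17*, *LINC01152*, *SOX9-AS1* and most of *LINC00511*. The proximal end of the *KCNJ2* domain lay at *ABCA10* and *ABCA5*, at 67.24 Mb in SNU-C1 and HCC1954 and at 67.28 Mb in SW480 and OE33. The distal end of the *SOX9* domain lay at 70.52 Mb, within *LINC00511*, in SW480, SNU-C1 and HCC1954, and at 70.68 Mb, within the zinc transporter gene *SLC39A11*, in OE33. The SW480 replicates differed in the same way, with 70.52 Mb in replicate 1 and 70.68 Mb in replicate 2. Insulation at these ends was −0.45 in SW480, −0.41 in SNU-C1, −0.37 in OE33 and −0.86 in HCC1954.

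The region was searched for the core letters of the motif of CTCF, the zinc finger protein that is bound at many boundaries and loop ends. The letters searched, on either strand, were CCA, any 2 bases and then AGGGGGC. They were in none of the 3 bins around each of the 3 domain ends. Since only 17.8% of all runs of 3 bins held them, nothing is read from their absence at 3 ends. They were in 21 of the 200 bins of the region (10.5%) and in 6.68% of the 64962 usable bins of the genome. Inside the *SOX9* domain there were 3 matches, in 2 bins, and inside the *KCNJ2* domain there was 1. These 4 are shown because their bins were also among the strongest partners of the genes, which was seen only after both had been listed. The capitals mark the core, and each match is written 5′ to 3′ on its own strand with 9 bases of GRCh37 on each side.
67.56 Mb, chr17:67565337-67565366, plus strand: ttaaaatagCCACAAGGGGGCagcaaaaca
68.76 Mb, chr17:68763427-68763456, plus strand: tacaggattCCAACAGGGGGCagtgaaatt
69.08 Mb, chr17:69080549-69080578, minus strand: ctttggcaaCCACCAGGGGGCagggaaagg
69.08 Mb, chr17:69081560-69081589, plus strand: ctctggcaaCCACAAGGGGGCagggaaggg
The last pair lie about 1 kb apart on opposite strands. A match of letters is not a site at which CTCF was measured, and the lack of a match does not mean that CTCF is absent.

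Contact across the boundary was measured as the mean O/E of bin pairs with 1 end in each domain over that of pairs within either domain at the same distances, from 200 kb to 2 Mb. The ratio was 0.542 in SW480 (interval 0.532 to 0.552, 11046 read pairs across), 0.595 in SNU-C1 (0.583 to 0.607), 0.536 in HCC1954 (0.526 to 0.546) and 0.444 in OE33 (0.432 to 0.456). The SW480 replicates gave 0.531 and 0.554. OE33 was below and SNU-C1 above both replicates by more than their difference, while HCC1954 lay between them. The spread of the replicates does not cover the difference in correction between SW480 and the other lines, which is described with the processing. The lines spanned 0.42 on the log2 scale, 0.15 without OE33 and 0.71 from read pairs without correction. A span at least as wide as 0.42 was found at 59.4% of the 1896 boundaries that could be measured in this way, and OE33 was the lowest of the lines at 23.6% of them. Over those boundaries SW480 had a median ratio of 0.484, SNU-C1 one of 0.477, HCC1954 one of 0.468 and OE33 one of 0.488, so contact across this boundary was above the median of the line in SW480, SNU-C1 and HCC1954 and below it in OE33.

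**Figure D2:**
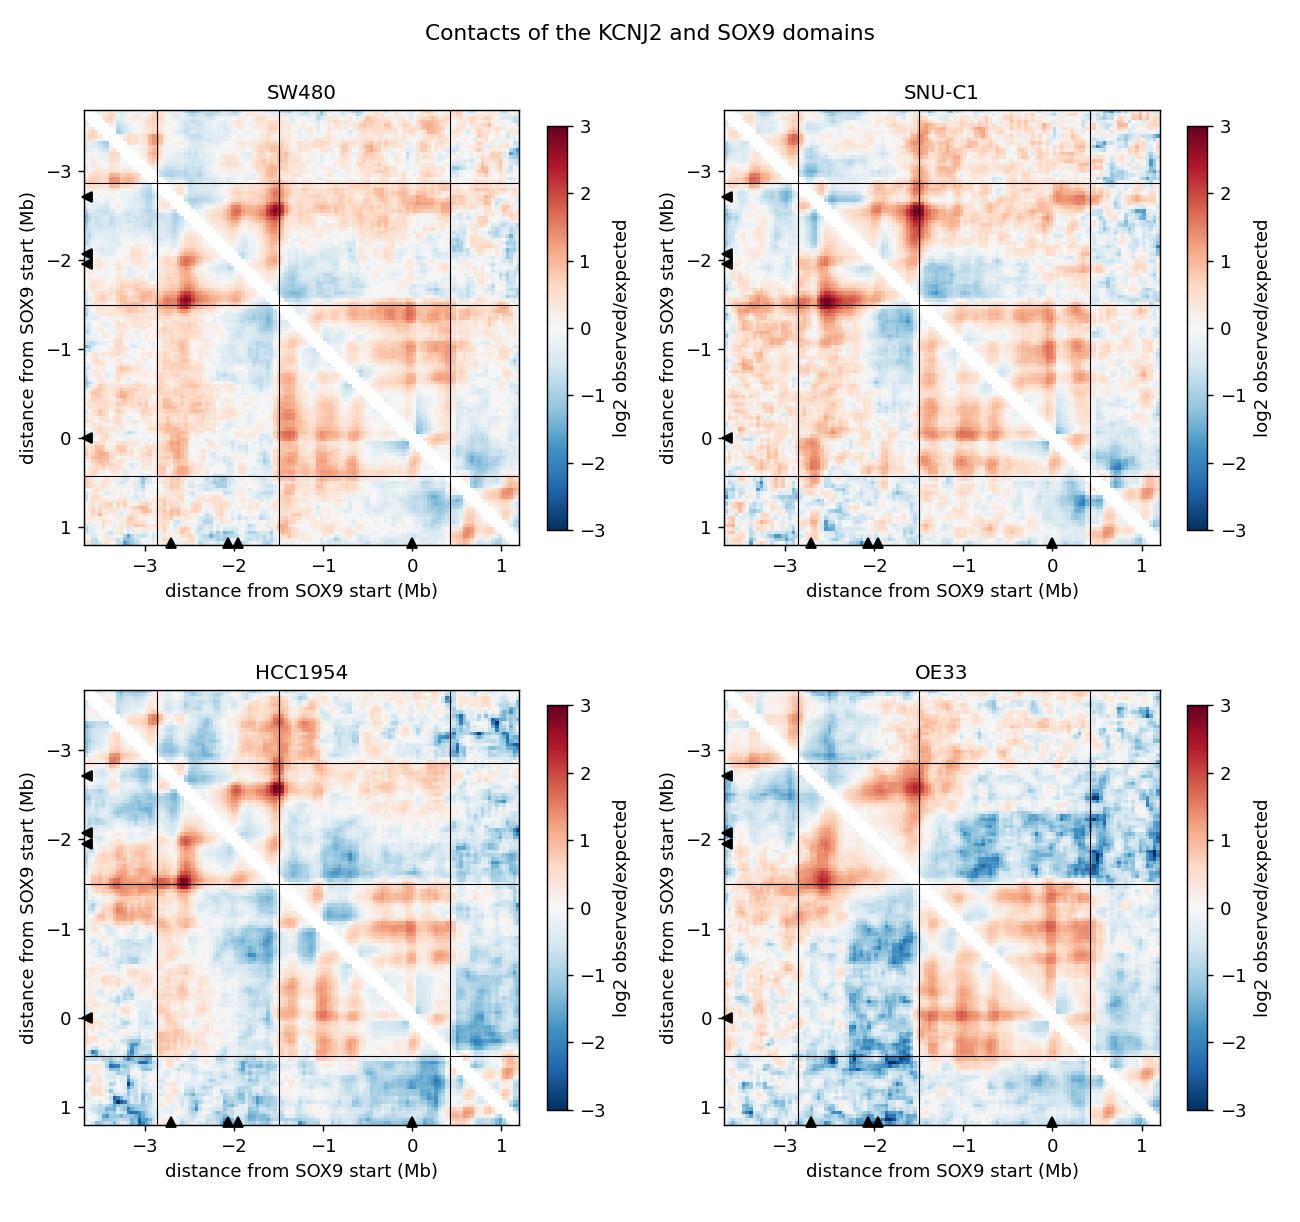
Log2 O/E over 3 by 3 bins in the 4 lines, with both axes in Mb from the start of *SOX9*; black lines mark the ends of the *KCNJ2* and *SOX9* domains and triangles the starts of *MAP2K6*, *KCNJ16*, *KCNJ2* and *SOX9*, from left to right. The darkest point of each map joins the end of *MAP2K6* to the boundary, and the pale stripes of the *SOX9* domain meet at *SOX9*.

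Along the desert, from 68.64 to 70.00 Mb, O/E was taken as summed contacts over summed expected values, so the bins nearest *SOX9* weighed most. It was 1.44 in SW480 (1.39 to 1.49, 3198 read pairs), 1.62 in SNU-C1 (1.56 to 1.68, 2632 read pairs), 1.53 in HCC1954 (1.49 to 1.58, 4526 read pairs) and 2.00 in OE33 (1.93 to 2.07, 3134 read pairs). The SW480 replicates gave 1.43 and 1.45. OE33 was thus highest and SW480 lowest. Each of the other lines differed from SW480 by more than its replicates did from each other, a spread that does not cover the difference in correction. This O/E rests on the iterative correction, since with read pairs as counted HCC1954 was highest, at 1.90 on the log2 scale against 1.53 in OE33. Over the same distances on the other side of *SOX9*, to 71.60 Mb, O/E was 1.29, 1.37, 1.12 and 1.29 in the order SW480, SNU-C1, HCC1954 and OE33. That side crosses the distal end of the domain. Inside the domain, over bins nearer *SOX9* than most of the desert, it was 1.72, 1.82, 1.65 and 1.70, and past the domain 0.739, 0.793, 0.494 and 0.688. At a like distance, about 0.26 Mb from the start of *SOX9*, runs of 3 bins had 1.10, 1.30, 1.24 and 1.48 on the desert side. On the other side, inside the domain, they had 2.09, 2.20, 2.11 and 1.95. With the *KCNJ2* domain *SOX9* had an O/E of 1.04 (369 read pairs) in SW480, 1.22 (296 read pairs) in SNU-C1, 0.906 (448 read pairs) in HCC1954 and 0.660 (150 read pairs) in OE33. The desert therefore exceeded the *KCNJ2* domain 1.38-fold in SW480, 1.33-fold in SNU-C1, 1.69-fold in HCC1954 and 3.03-fold in OE33.

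The contacts of *SOX9* did not fade evenly with distance. In steps of 200 kb, O/E was between 1.05 and 1.37 at 69.8 Mb in the 4 lines, rose to between 1.91 and 2.66 at 69.4 Mb and stood at 2.19 to 3.34 at 69.0 Mb. It was lower at 68.8 Mb, at 1.49 in SW480, 1.78 in SNU-C1, 2.47 in OE33 and 1.33 in HCC1954, and higher again at the boundary, where SW480 had 3.25 in the step from 68.6 Mb, SNU-C1 2.31, HCC1954 1.83 and OE33 2.99. The next step, from 68.4 Mb and on the *KCNJ2* side, held 0.658, 1.01, 0.639 and 0.652. Contact thus fell to less than 0.5 of its value over 1 step in every line. On the other side of the gene O/E was 1.69 to 2.05 at 70.4 Mb and 0.559 to 0.817 at 70.6 Mb, beyond the distal end of the domain.

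**Figure D3:**
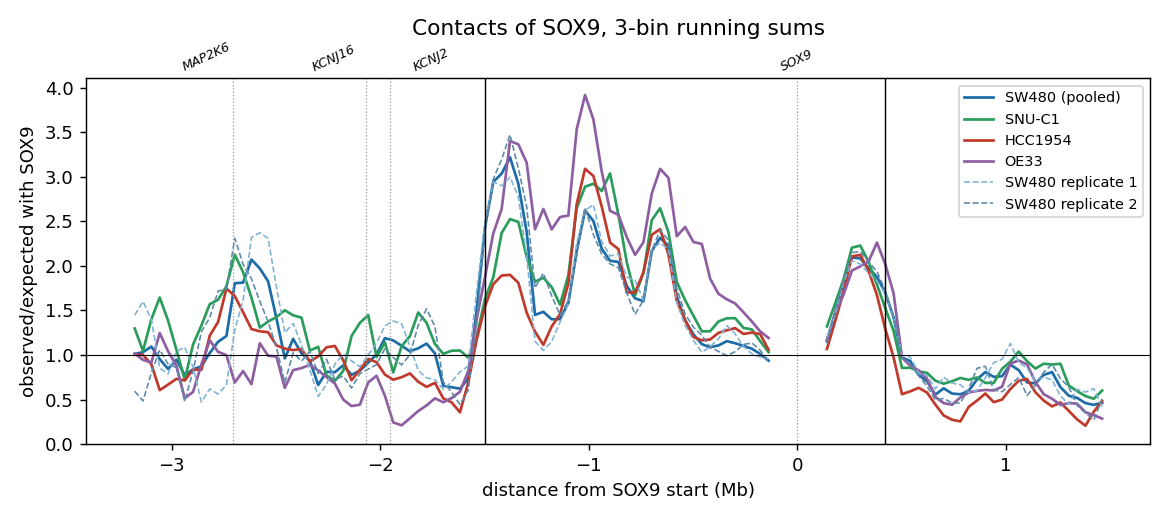
O/E of the *SOX9* bins with each run of 3 bins, by distance from the start of *SOX9* in Mb; solid lines are the 4 lines, dashed lines the SW480 replicates, black verticals the ends of the *SOX9* domain and dotted lines the gene starts. All maps have 3 rises to about 1.90 or more between the boundary and the gene, and in SW480 the rise nearest the boundary is the highest.

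Running sums over 3 bins had 3 rises to about 1.90 or more in the desert in every map. A lower rise, of 1.16 to 1.41, stood at 69.76 Mb in SW480 and its replicate 1 and at 69.80 Mb in SNU-C1 and HCC1954. The one centred at 68.72 Mb, 1.38 Mb before the gene, reached 3.40 in OE33, 3.22 in SW480, 2.52 in SNU-C1 and 1.90 in HCC1954. The one at 69.08 Mb reached 2.62 in SW480, 3.09 in HCC1954 and 3.92 in OE33, and in SNU-C1 the local maximum was at 69.20 Mb with 3.04. The one at 69.44 Mb, 0.657 Mb before the gene, reached 2.31, 2.65, 2.41 and 3.09 in the order SW480, SNU-C1, HCC1954 and OE33. The 3 higher rises stood at similar positions in the lines, and their relative heights differed.

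As a single bin, the strongest partner of *SOX9* at 200 kb to 2 Mb was 68.76 Mb in SW480, with an O/E of 3.99 (3.11 to 5.03, 71 read pairs). Both replicates also had it first, at 3.59 and 4.43. In the other 3 lines it was 69.08 Mb, at the end of *CASC17*, with 3.78 (85 read pairs) in SNU-C1, 4.19 (182 read pairs) in HCC1954 and 4.84 (105 read pairs) in OE33. At 68.76 Mb, SNU-C1 had 2.70, HCC1954 1.75 and OE33 4.40, which ranked 8, 16 and 2 among the 52 bins compared. At 69.08 Mb, SW480 had 3.15, which ranked 4. HCC1954 was below both SW480 replicates at 68.76 Mb, with an upper interval limit of 2.44. That bin was picked for being the highest of SW480, which favours SW480, so no difference between the lines is read from it. The bins at 68.76 and 69.08 Mb are the only 2 of the *SOX9* domain with matches to the core letters printed above. That 1 of them was the first partner of *SOX9* in each line was seen after both were listed. No share by chance was computed, so nothing is read from it. The boundary bin at 68.60 Mb, the first partner of *MAP2K6* in every map, held no match.

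*KCNJ2* and *SOX9* are 1940 kb apart, and the bins of both genes shared 17 read pairs in SW480 (O/E 1.38, 0.805 to 2.21), 12 in SNU-C1 (1.38, 0.713 to 2.41), 9 in HCC1954 (0.684, 0.313 to 1.30) and 0 in OE33. An O/E of 1 would have given 6.58 read pairs in OE33. With 3 read pairs taken as the upper limit of a count of 0, which is not the exact interval used elsewhere, O/E could be up to 0.456. The intervals of SW480, SNU-C1 and HCC1954 overlapped, and the limit of OE33 lay within that of HCC1954 and below those of SW480 and SNU-C1. *KCNJ16* with *SOX9* had 0.768 in OE33, 0.920 in HCC1954, 0.977 in SNU-C1 and 1.01 in SW480, with overlapping intervals. *MAP2K6*, the farthest of the 3 from *SOX9*, had a higher O/E with it than either potassium channel gene in every line. It had 1.90 (63 read pairs) in SW480, 1.81 (39 read pairs) in SNU-C1, 1.45 (65 read pairs) in HCC1954 and 0.807 (18 read pairs) in OE33. The replicates of SW480 gave 1.89 and 1.93 for *MAP2K6*. Its interval lay above that of *KCNJ16* in SW480 and overlapped it in the other lines, and it overlapped that of *KCNJ2* in the 3 lines in which *KCNJ2* had read pairs.

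Within the *KCNJ2* domain the first partner of *MAP2K6* was not that of either potassium channel gene. The highest O/E over 3 by 3 bins joined the end of *MAP2K6* or the bin just past it, 67.52 or 67.56 Mb, to 68.56 Mb, next to the boundary, in every map. At 67.56 and 68.56 Mb it was 6.76 in SW480 (757 read pairs), 8.17 in SNU-C1 (726 read pairs), 7.03 in HCC1954 (949 read pairs) and 4.78 in OE33 (284 read pairs), with 7.10 and 6.50 in the SW480 replicates. At these bins OE33 lay below both replicates and SNU-C1 above them, while HCC1954 lay between. At 67.52 and 68.56 Mb HCC1954 was highest at 7.26, above SNU-C1 (6.57) and SW480 (6.06) with both replicates (6.4 and 5.81), and OE33 was again lowest at 4.92. *MAP2K6* as a whole had its strongest partner in the boundary bin at 68.60 Mb in every map, highest in HCC1954 at 6.34, with 4.69 in OE33, 4.58 in SNU-C1 and 4.34 in SW480.

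*KCNJ16* had its strongest partner at 67.56 Mb in every map, which is the bin with the match to the core letters in the *KCNJ2* domain. That, too, was seen after both were listed. Its O/E there was 3.28 in SW480 (317 read pairs), 2.80 in SNU-C1 (281 read pairs), 3.75 in HCC1954 (503 read pairs) and 3.01 in OE33 (172 read pairs). *KCNJ2*, in a single bin, was less uniform. Its first partner was 67.60 Mb in SW480 and both replicates, 67.56 Mb in HCC1954, 67.52 Mb in OE33 and 68.52 Mb, on the boundary side, in SNU-C1, at 3.05, 3.52, 3.57 and 2.95. *KCNJ2* with *MAP2K6* had 1.88, 2.06, 1.79 and 2.64 in SW480, SNU-C1, HCC1954 and OE33, where the interval of OE33, from 2.17 to 3.18, lay above both SW480 replicates.

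No bin pair between 65 and 73 Mb was specific to a line, out of 19110 at least 200 kb apart, where specific means an O/E over 3 by 3 bins of at least 4 and of at least 4 times the highest other line after adding 0.5 to each. At the same distances 0.0469% of the bin pairs of all autosomes were. The highest ratio of any line was 2.46, in SNU-C1 between 65.60 and 71.76 Mb, from 17 read pairs. In single bins 29 pairs passed, of which 2 held at least 10 read pairs. The share of autosomal bin pairs that pass as single bins was not computed, so nothing is read from these counts. Both joined 66.32 Mb in SW480, to 70.04 Mb just before *SOX9* (O/E 5.07, 12 read pairs) and to 70.60 Mb in *LINC00511* (5.25, 16 read pairs). The replicates had 6 and 6 read pairs at the first and 6 and 10 at the second, and the other lines had 1 or 2.

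Coverage, the read pairs of a bin within its chromosome over the autosomal median of its map, was set against the other lines at each gene. Read pairs between chromosomes, whose share differed between the lines, are not counted in it. Relative to the median of the other 3 lines and over 1 Mb around the gene, *SOX9* had 0.806 in SW480, with 0.803 and 0.821 in its replicates, 0.737 in SNU-C1, 1.24 in OE33 and 1.61 in HCC1954. *KCNJ2* and *KCNJ16*, whose windows overlap almost fully, both had 0.872, 1.15, 1.71 and 0.762 in the order SW480, SNU-C1, HCC1954 and OE33. *MAP2K6* had 0.931, 1.07, 1.73 and 0.869. HCC1954 was higher at 4 of 4 genes by the limit of 1.5, which 11.5% of the autosomal bins of HCC1954 passed. No other line passed it at any of them, nor did any line pass the limit in the lower direction, below 1/1.5. The window of *MAP2K6* overlaps those of *KCNJ16* and *KCNJ2* in part, so the 4 genes are not separate stretches. Of the 200 bins of the region, 83 (41.5%) were higher in HCC1954 and 49 (24.5%) in OE33, and 21 were lower in SNU-C1. The higher coverage of HCC1954 was thus not particular to the 4 genes. Of all autosomal bins SW480 was higher at 4.64% and lower at 4.73%, SNU-C1 higher at 9.28% and lower at 4.5%, HCC1954 lower at 11.8% and OE33 lower at 8.21%. Of the 20 neighbours found out of a list of 21, HCC1954 was higher at *ABCA5*, *CASC17*, *SOX9-AS1* and *LINC01152*, OE33 at 7 genes beyond 71 Mb such as the somatostatin receptor gene *SSTR2* (11.7% of autosomal bins), and SNU-C1 was lower at the autophagy gene *WIPI1*. The genes outside the region with the coverage pattern most like that of *SOX9*, by Euclidean distance over the 4 lines among 1030 genes of chromosome 17, were *CACNG5*, *TANC2* and *KCNH6*, all between 61 and 65 Mb, at distances of 0.0894, 0.143 and 0.158 in log2 units.

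**Figure D4:**
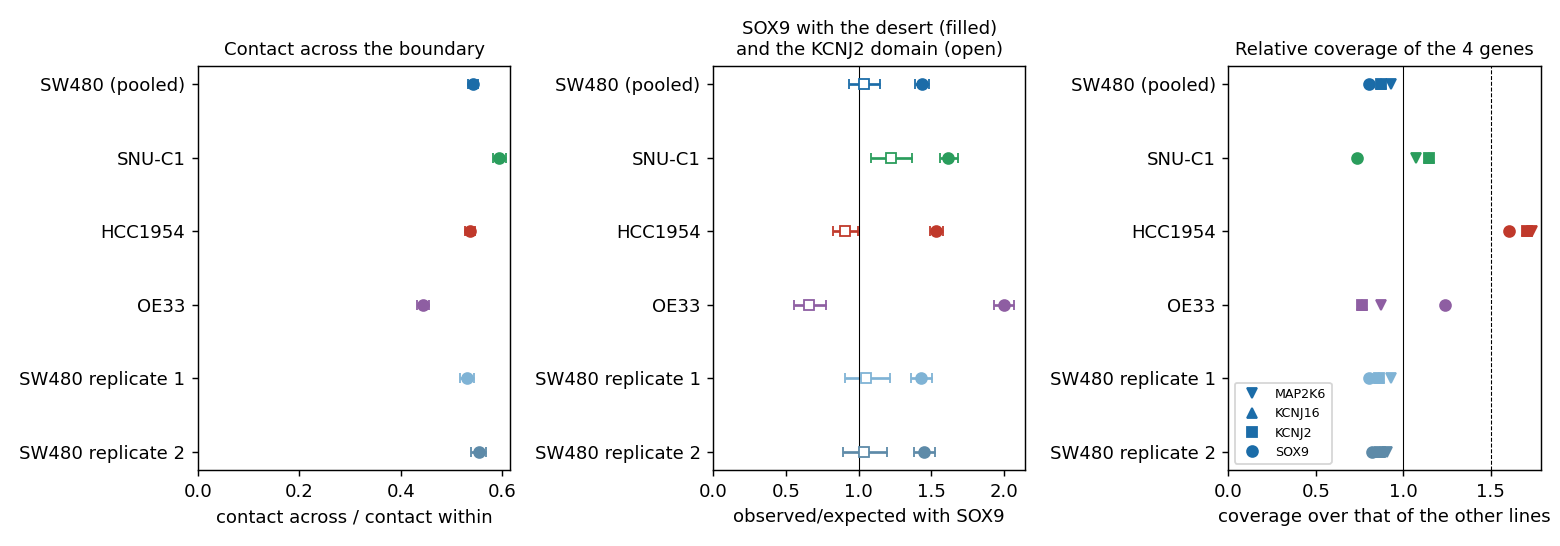
Left, contact across over contact within the domains; middle, O/E of *SOX9* with the desert (filled) and with the *KCNJ2* domain (open); right, coverage of the 4 genes over the median of the other 3 lines, with a dashed line at 1.5, where symbols of *KCNJ16* lie under those of *KCNJ2*. Rows are maps and bars exact 95% Poisson intervals; OE33 is lowest on the left, at 0.444, and spreads widest in the middle, and HCC1954 alone passes the dashed line.

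In HCC1954 the distal end of the *SOX9* domain carried contacts that no other map had. The one by which the region was chosen joined the bin from 70.48 to 70.52 Mb, in *LINC00511*, to 37.28 to 37.32 Mb, 33.2 Mb away, with an O/E of 154 over 3 by 3 bins (137 to 171, 323 read pairs). SW480 had 1 read pair there, SNU-C1 1 and OE33 5, with O/E values of 0.430, 0.711 and 0.441, and the ratio of HCC1954 to the highest of them was 127. It was 69.8 over 5 by 5 bins and 71.6 from read pairs without correction. The far bins overlap *PLXDC1*, with *CACNB1* and the ribosomal protein gene *RPL19* in the next bin. *ERBB2*, a receptor tyrosine kinase gene, begins 524 kb beyond the far bin. Over 1 Mb around it the median coverage was 23.98 times the autosomal median in HCC1954 and 4.89 times in OE33, against 0.961 in SW480 and 0.794 in SNU-C1.

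Bin by bin, the contact began at 70.44 Mb and ran away from *SOX9*. With the stretch from 37.24 to 37.60 Mb, HCC1954 had 1 read pair in the bin at 70.40 Mb, 199 at 70.44 Mb, 135 at 70.48 Mb and 101 at 70.52 Mb. The 10 bins before 70.44 Mb held 13 read pairs in all and the 10 bins after that bin 594, where SW480 had 19 and 10, SNU-C1 6 and 4, and OE33 40 and 56. The far side was as sharp, since the bin at 70.44 Mb had 3 read pairs with the stretch from 36.88 to 37.24 Mb. *SOX9*, which ends 357 kb before the near bin, had 13 read pairs with the megabase around the far bin (O/E 0.303, 0.162 to 0.519), against 0.581 in SW480, 0.558 in SNU-C1 and 0.246 in OE33. With *ERBB2* itself it had 3 read pairs (O/E 0.197, 0.0406 to 0.575). *SLC39A11*, *SSTR2* and *SDK2*, which lie beyond the edge, had O/E values of 17.9 (381 read pairs), 18.2 (35 read pairs) and 7.94 (85 read pairs) with 37.24 to 37.60 Mb, and none of the 4 genes before it passed 0.492.

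*SOX9* lay on the other side of that edge, and there HCC1954 had a contact with the end of the long arm, which was found by searching for its highest ratio outside 35 to 40 Mb and so was chosen after its values were seen. The bin from 70.36 to 70.40 Mb with that from 80.20 to 80.24 Mb had an O/E of 60.4 (55.1 to 66.1, 471 read pairs), against 0.364 in SW480 (4 read pairs), 0.205 in SNU-C1 (1 read pair) and 0.444 in OE33 (4 read pairs), a ratio of 64.5. The ratio was 21.5 in single bins, 33.5 over 5 by 5 bins and 42.5 with 1 in place of 0.5 added to each O/E. The far bins overlap *SLC16A3*, a lactate exporter gene, and *CSNK1D*, a casein kinase gene, with *CCDC57*, *CD7* and *SECTM1* around them. With the stretch from 80.16 to 81.08 Mb, HCC1954 had 248 read pairs in the bin at 70.36 Mb, 459 at 70.40 Mb, 17 at 70.44 Mb and 14 at 70.48 Mb. The 10 bins before 70.44 Mb held 2116 read pairs and the 10 after that bin 54, where SW480 had 87 and 94, SNU-C1 38 and 41, and OE33 79 and 84. Contacts with both far stretches thus changed at the same 40-kb step, between 70.40 and 70.48 Mb, in opposite directions.

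**Figure D5:**
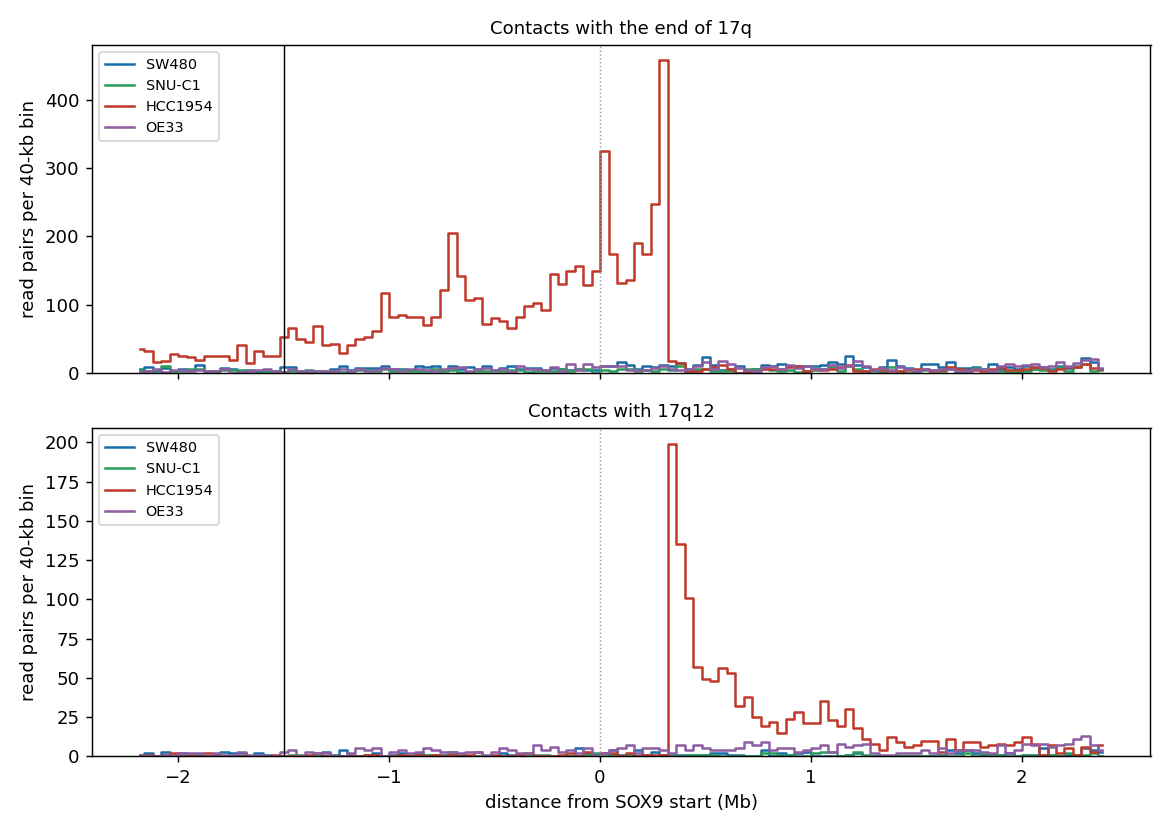
Read pairs per 40-kb bin of the 4 lines with the end of 17q (80.16 to 81.08 Mb, top) and with 17q12 (37.24 to 37.60 Mb, bottom), by distance from the start of *SOX9* (dotted line) in Mb; the black line is the boundary of the domains. In HCC1954 the upper contacts stop and the lower ones begin at the same bin beyond *SOX9*, and the other lines stay near the axis.

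*SOX9* was inside the stretch in contact with the end of 17q. Its bins had 474 read pairs with 80.16 to 81.08 Mb in HCC1954, an O/E of 12.7 (11.6 to 13.9), against 14 in SW480 (0.363), 4 in SNU-C1 (0.167) and 18 in OE33 (0.50). With the stretch just before it, from 79.24 to 80.16 Mb, which had 11 usable bins against 23, *SOX9* had 7 read pairs in HCC1954 (O/E 0.576). Inside the *SOX9* domain the contact already fell away from the edge, from 459 read pairs in the bin at 70.40 Mb to 29 at 68.88 Mb in HCC1954. It went on past the domain boundary and beyond the *KCNJ2* domain. The part of the boundary and that of distance from the edge in this fall were not tested. *KCNJ2* had 2.39 (1.52 to 3.59, 23 read pairs), *KCNJ16* 1.77 (1.38 to 2.24, 69 read pairs) and *MAP2K6* 2.91 (2.44 to 3.43, 140 read pairs) in HCC1954, and at most 0.574 in any other line. Neighbours farther from *SOX9* than these genes had like values in HCC1954, with 2.30 at *PRKAR1A*, 2.25 at *WIPI1* and 1.89 at *FAM20A*. Those between had 1.12 at *ABCA8*, 1.19 at *ABCA9*, 1.27 at *ABCA6* and 1.60 at *ABCA10*, so the level was not particular to the genes followed. Among the non-coding genes of the *SOX9* domain, *CASC17* had 6.76, *SOX9-AS1* 10.9 and *LINC01152* 12.2 in HCC1954.

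Coverage of HCC1954 was also lower beyond the edge. Over the 10 bins on each side its median was 2.02 and 1.58 times the autosomal median, a ratio of 1.28, against 1.003 in SW480, 1.07 in SNU-C1 and 0.941 in OE33. Over longer stretches it was 2.06 times the autosomal median over the 1 Mb before 70.44 Mb and 1.10 over the 1 Mb after that bin, a ratio of 1.87, where SW480 had a ratio of 1.21, SNU-C1 1.36 and OE33 1.002. Part of this lay past the edge, at 70.76 Mb, where HCC1954 went from 1.47 to 0.868 and SW480 from 1.28 to 0.898 in 1 bin. At the far end it was 0.355 from 79.24 to 80.16 Mb and 0.752 from 80.16 to 81.08 Mb, against 0.644 and 0.640 in SW480. The part of the change of coverage in the O/E values was not tested. Iterative correction divides each bin by its own factor, and the contacts as counted, without it, are those given above as read pairs.

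Over the rest of chromosome 17, in blocks of 200 kb at least 2 Mb apart with 1 end in the region, 58 of 12590 block pairs were specific to HCC1954, or 0.461%, where 0.231% were over all of chromosome 17. Both counts include the contact by which the region was chosen and the one with the end of 17q, so nothing is read from their difference. There were 6 in OE33 (0.0477%, against 0.0132% over the chromosome), 2 in SNU-C1 (0.0159%, against 0.0396%) and 0 in SW480 (against 0.00495%). At least 10 read pairs were held by 57 of those of HCC1954, 5 of OE33 and 0 of SNU-C1. Those 5 of OE33 joined blocks that start from 51.2 to 52.2 Mb to blocks of the *KCNJ2* domain that start from 67.4 to 68.4 Mb. The highest O/E among them was 8.28 (65 read pairs), between 52.2 and 68.4 Mb, where the highest other line had 1.61. The cause of this OE33 contact was not tested. With other chromosomes, in blocks of 1 Mb and without SW480, whose maps hold almost no such pairs, 105 of 20544 were specific to HCC1954 (0.171% over chromosome 17), 4 to SNU-C1 (0.150%) and 0 to OE33 (0%). The highest joined the megabase from 68 Mb of HCC1954, which holds *KCNJ2* and the domain boundary, to chromosome 8 from 76 Mb, with an O/E of 20.5 (232 read pairs). It was not particular to that megabase. The one from 67 Mb had 19.4 (224 read pairs) with chromosome 8 from 75 Mb, and the one from 66 Mb had 16.9 (187 read pairs) from 73 Mb. In SNU-C1 the megabase from 70 Mb, which holds *SOX9*, was joined to chromosome 11 from 23 Mb with an O/E of 5.54 (229 read pairs). The megabase from 69 Mb had 4.41 (142 read pairs) with the same block.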

How the data were processed

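In all, 6 maps were used, 3 of SW480 and 1 each of SNU-C1, HCC1954 and OE33. The methods name MboI for the in situ digestion, BWA-MEM for alignment to hg19, Picard for duplicates and iterative correction of the matrices; versions: not given in the sources used here. What the authors deposited is a signal, the contact frequency between 40-kb bins after that correction. Since the correction divides read pairs by 1 factor per bin, those factors were fitted and read pairs recovered (whole within 0.02 at all tested values of chromosome 17). Pairs between chromosomes were 0.27% of read pairs in SW480 and 14.8% to 36.6% in the other lines.

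A bin of chromosomes 1 to 22 or X was kept where its coverage reached 0.25 of the median in each of the 4 lines. Expected values were the mean at each distance over all chromosomes, in windows of 10%. The insulation score used a square of 1 Mb, a slope over 200 kb and a minimum strength of 0.1. Domain ends came from the mean of the 4 lines. With 1 map for 3 lines, no test between lines was run and no p-value is given. Calls recovered all boundaries and bin pairs planted in simulated read pairs. The bin pairs were planted far above the call limit, coverage was even, and boundaries were checked without HCC1954. This shows that the calls work as written, and not how they fare in rearranged maps. Genes are from GENCODE 44 on GRCh37, whose chromosome lengths match the bins. Named are the 4 genes, 21 listed neighbours (*LINC00673* is not in the annotation), genes at the boundaries and under the far ends (1 is not reported here), 3 genes with like coverage and the first partners. The genes and lists were chosen with earlier results of these data known, and the contact with the end of 17q after its values were seen. Computation used NumPy 2.4.6, pandas 2.3.3 and SciPy 1.17.1 under Python 3.11.15, and figures were drawn with Matplotlib 3.10.9.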

Additional observations from a re-analysis of the deposited data

How the results depend on the processing

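The 4 lines placed the boundary within 40 kb of each other, within 0 kb with a square of 480 kb and within 480 kb with a square of 240 kb, where HCC1954 was at 69.08 Mb and the others at 68.60 Mb. The log2 span of contact across the boundary was 0.42, and it was 0.71 from read pairs without correction, 0.55 at 400 kb to 1.2 Mb and 0.15 without OE33, which was lowest in all 6 other alternatives that included it. The log2 span of *SOX9* along the desert was 0.48, and it was 0.71 with the expected value from chromosome 17 alone, 1.10 from read pairs without correction, 0.52 with a coverage minimum of 0.5, 0.36 with 1 more bin on each side of *SOX9* and 0.17 without OE33. OE33 was highest in 5 of the 6 alternatives that included it, and HCC1954 was highest from read pairs without correction. Line-specific bin pairs numbered 0, and 29 in single bins, of which 2 had at least 10 read pairs, with no share over the autosomes computed for single bins.

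Coverage of *SOX9* in HCC1954 was 1.61 times that of the other lines, 1.87 in the gene's own bins, 1.53 from read pairs at least 1 Mb apart and 1.53 against the mean of the other 3 lines. The ratio at the HCC1954 contact with 17q12 was 127, and it was 69.8 over 5 by 5 bins, 89.4 with the expected value from chromosome 17 alone, 71.6 from read pairs without correction and 90.4 with 1 added. At the contact with the end of 17q it was 64.5, and 21.5 in single bins, 33.5 over 5 by 5 bins, 72.9 from read pairs without correction and 42.5 with 1 added. With 1 SW480 replicate in place of the pooled map, the boundary stayed within 40 kb, the span across it was 0.42, that along the desert ran from 0.46 to 0.48, specific bin pairs numbered 0, coverage ran from 1.60 to 1.61, and the ratios ran from 112 to 127 and from 57.3 to 64.5. The alternatives for the end of 17q, those without OE33 and that with at least 10 read pairs were chosen after seeing the data.

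No paired analysis was possible because only SW480 had replicate numbers and no result came from a test. The cause of these changes was not tested. Depth limits the sparse pairs such as *SOX9* and *KCNJ2*, which shared at most 17 read pairs in a map, and intervals cover counting error only.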
